A study of Mus musculus with 2 samples.

Results

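The D cyclins, their kinases and the Cdk inhibitors were followed as a group of 10 genes, chosen by symbol from the 22032 genes of a UMI count table of mouse embryonic thymus. The group holds the cyclins Ccnd1, Ccnd2 and Ccnd3, the kinases Cdk4 and Cdk6, the Cip/Kip inhibitors Cdkn1a and Cdkn1b, and the INK4 inhibitors Cdkn2a, Cdkn2c and Cdkn2d. All 10 had a row in the table, and the rule that names them uses no measured value. The study profiled DN1 thymocytes, the most immature CD4- CD8- cells of the thymus, purified by flow cytometry from 5x polychromILC mice. The libraries were E19.5_DN1 and E15.5_DN1, with 1 droplet 3' library for each stage and the same strain, tissue and sort in both. Because the extraction label mentions nuclei, it is not clear if intact cells or nuclei entered the droplets. The table marks its 6057 barcodes only by suffix 2 or suffix 1, and no label ties a suffix to a stage, so a difference between suffixes is not reported as a difference between stages.

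D-type cyclins bind and activate Cdk4 and Cdk6, and the active kinases phosphorylate the RB family, which frees E2F factors to switch on genes of S phase. INK4 proteins bind Cdk4 and Cdk6 and keep the D cyclins off, whereas the Cip/Kip proteins p21 (Cdkn1a) and p27 (Cdkn1b) act mainly on the Cdk2 complexes further along. In the thymus, Ccnd3 and Cdk6 are known for their part in the expansion of immature T cells, and p27 and p18 (Cdkn2c) for restraint of lymphocyte division.

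Barcodes were assigned to 4 gates by at least 2 raw UMIs of each of a pair of genes. The pairs were Icos and Rora for ILC2, Xcl1 and Nkg7 for NK/ILC1, Cd3g and Myb for early T cells (DN2/DN3), and Spi1 and Bcl11a for progenitors. Of 5090 barcodes kept, 3385 fell in 1 of the 4 gates and carried 68341324 UMIs. The gates held 1013 ILC2, 1253 NK/ILC1, 309 Cd3g/Myb and 810 progenitor barcodes, with median depths of 13645, 11225, 27167 and 33142.5 UMIs in the same order. A barcode was called cycling at 3 or more UMIs of Mki67 and Top2a together, which gave 390 ILC2, 431 NK/ILC1, 210 Cd3g/Myb and 522 progenitor barcodes. Levels are CPM, a gene's UMIs scaled to the summed UMIs of a group as counts per 1e6. UMIs tag 3' ends, so they need no scaling by gene length.

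The marker list of each gate's name had UMIs in that gate, and the Cd3g/Myb gate also held other lists. Levels are summed over a list, and a sum can rest on 1 gene. The ILC2 and progenitor lists are not given here in the other gates, so how far they set a gate apart is not shown. The summed ILC2 list stood at 1221 CPM in the ILC2 gate, the NK/ILC1 list at 4998 CPM in the NK/ILC1 gate and the progenitor list at 646 CPM in the progenitor gate. The Cd3g/Myb gate had the DN2/DN3 list at 1437 CPM, with Bcl11b at 237 CPM and Rag1 at 41.4 CPM. It also had the alpha-beta thymocyte list (Cd8a, Cd8b1, Cd4 and Arpp21) at 294 CPM and the gamma-delta list (Sox13, Blk and Il17a) at 98.5 CPM. In that gate 195 of 309 barcodes carried a UMI of Sox13, Blk or Cd8b1, so it is called here by its genes and not by a stage. Its NK/ILC1 list was at 2127 CPM, nearly all of it Gzma, with Eomes and Klrb1c at 0. In the NK/ILC1 gate of suffix 1, many non-cycling barcodes held UMIs of thymic epithelial keratins and proteases. Barcodes of any gate or none that held 2 or more UMIs of Krt8, Krt18 and Prss16 were left out, 59 from suffix 2 and 263 from suffix 1. Those of suffix 1 included 145 non-cycling and 30 cycling NK/ILC1 barcodes. Values without barcodes holding even 1 are given for some NK/ILC1 comparisons between suffixes and with division. The NK/ILC1 ratios over progenitors are given only with barcodes holding 1 kept. The suffixes shared 25 barcode sequences.

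No replicate exists for any gate, so no test was run. Intervals are exact 95% intervals that cover counting error only, and the spread between animals is not known. A gene counted as past 2-fold where its ratio reached 2 in either direction with at least 20 UMIs over both groups.

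The kinase genes were the most abundant members in the progenitor and Cd3g/Myb gates, and the promoter of Cdk4 is shown for the letters it holds. Cdk4 lies at chr10:127063534-127067920 on the plus strand of GRCm38 (GENCODE vM21). The windows below are the 250 bases before the annotated start in RefSeq, build GRCm38.p6, at chr10:127063285-127063534 for Cdk4 and chr5:3343643-3343892 for Cdk6, both on the plus strand. Capitals mark CACGTG, the E-box letters that Myc-Max dimers bind.

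Cdk4: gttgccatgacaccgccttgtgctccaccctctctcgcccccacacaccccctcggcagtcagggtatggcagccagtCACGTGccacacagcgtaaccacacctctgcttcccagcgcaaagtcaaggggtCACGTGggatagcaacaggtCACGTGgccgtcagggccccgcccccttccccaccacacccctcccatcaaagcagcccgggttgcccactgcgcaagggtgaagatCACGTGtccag

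Cdk6: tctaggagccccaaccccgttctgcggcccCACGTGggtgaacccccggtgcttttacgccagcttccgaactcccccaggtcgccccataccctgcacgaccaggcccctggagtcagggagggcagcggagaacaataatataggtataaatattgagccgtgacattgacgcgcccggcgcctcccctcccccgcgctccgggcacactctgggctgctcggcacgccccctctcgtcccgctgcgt

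The Cdk4 window held 4 E-boxes, a number that 7 of 32851 promoter windows of this length reached (0.0213%). The Cdk6 window held 1, as 6.02% of windows did at least. CACGTG reads the same on both strands, and it was looked for after these sequences had been seen. Of the members, 8 had an entry, with 12 windows between them; Ccnd1 and Ccnd2 are named only. The other 10 windows held no CACGTG. E2F letters (TTTCCCGC, TTTGGCGC, TTTCGCGC or TTTGCCGC, either strand) were in 1 of the 12 member windows, at Cdkn2a, against 1.86% of all windows. The cell cycle homology letters TTTGAA or TTCGAA, searched on both strands, were in 0 of 12, against 17.1% of all windows. The matches describe letters and are not shown to be bound sites.

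**Figure D1:**
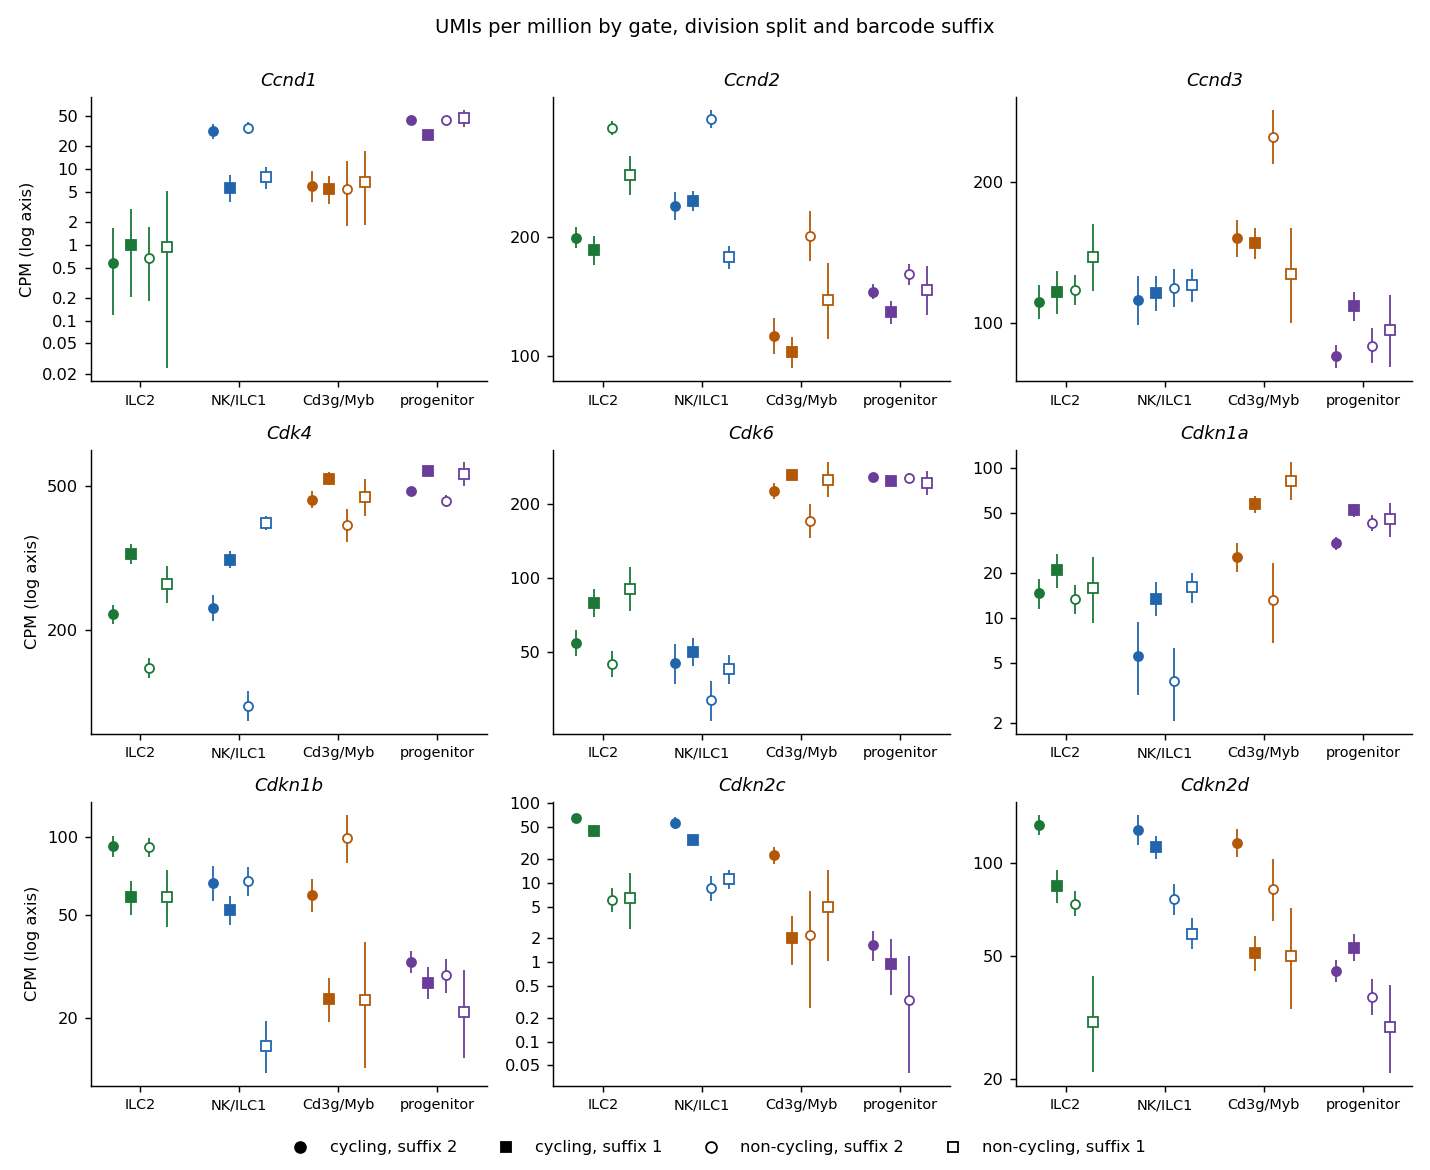
Level of 9 members in CPM (log axis, a separate range in each panel) by gate, with cycling barcodes as filled and non-cycling barcodes as open symbols, and suffix 2 as circles and suffix 1 as squares. Bars are exact 95% counting intervals; Cdkn2c in non-cycling progenitors of suffix 1 had no UMI and is not drawn. Cdkn2c separates filled from open symbols in the ILC2 and NK/ILC1 gates, and Ccnd1 is lowest in the ILC2 gate in every group.

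Among the D cyclins, Ccnd1 showed the widest range across gates. Its level was 0.718 CPM in the ILC2 gate, 17.2 in NK/ILC1, 5.68 in Cd3g/Myb and 39.5 in the progenitor gate. In the ILC2 gate it was at 0.622 CPM in suffix 2 and 0.982 in suffix 1, from 11 UMIs in all, and in the progenitor gate at 43.4 and 30.5 CPM. The ILC2 gate was 55.0-fold lower than the progenitor gate (log2 ratio -5.78, interval -6.79 to -4.94), where 16.4% of all genes were past 2-fold lower. After each barcode was thinned to 6974 UMIs, Ccnd1 was seen in 0.821% of ILC2 barcodes, 8.26% of NK/ILC1, 3.82% of Cd3g/Myb and 23.2% of progenitor barcodes. Unthinned, these shares were 1.09%, 12.5%, 10.7% and 56.5%. The ILC2 share serves as the level that free RNA can give, and the others lay above it.

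Ccnd1 also divided the NK/ILC1 gate by suffix. It stood at 33.4 CPM in suffix 2 and 6.69 CPM in suffix 1, a log2 ratio of 2.32 (1.91 to 2.75). The difference was as large in cycling barcodes, at 31.6 and 5.63 CPM, as in non-cycling ones, at 34.6 and 7.68 CPM. With every barcode that held an epithelial UMI removed, the log2 ratio was 2.27. In the other gates Ccnd1 stayed within 2-fold between suffixes where it could be counted.

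Ccnd2, the most abundant D cyclin of the innate gates, was at 274 CPM in ILC2, 260 in NK/ILC1, 118 in Cd3g/Myb and 145 in progenitors. Neither innate gate passed 2-fold over progenitors, with log2 ratios of 0.92 (0.85 to 0.98) for ILC2 and 0.84 (0.78 to 0.91) for NK/ILC1, suffixes and division pooled. Within subsets some ratios did pass. Among them, NK/ILC1 of suffix 2 was at 335 CPM, against 151 in progenitors (1.15), and non-cycling ILC2 barcodes at 365 CPM, against 159 in non-cycling progenitors (1.2). Non-cycling ILC2 barcodes of suffix 2 also passed, at 379 CPM, against 161 in progenitors. Ccnd3 varied least, with 117 CPM in ILC2, 117 in NK/ILC1, 158 in Cd3g/Myb and 92.6 in progenitors. ILC2 and NK/ILC1 did not differ in Ccnd3 beyond counting error (log2 ratio 0.01, -0.08 to 0.11). The Cd3g/Myb gate had the highest Ccnd3 level, at 173 CPM in suffix 2 and 145 in suffix 1. Ccnd3 made up 56.0% of D cyclin UMIs in the Cd3g/Myb gate, against 33.4% in progenitors. The summed D cyclins differed less than their members, at 391 CPM in ILC2, 395 in NK/ILC1, 282 in Cd3g/Myb and 277 in progenitors.

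**Figure D2:**
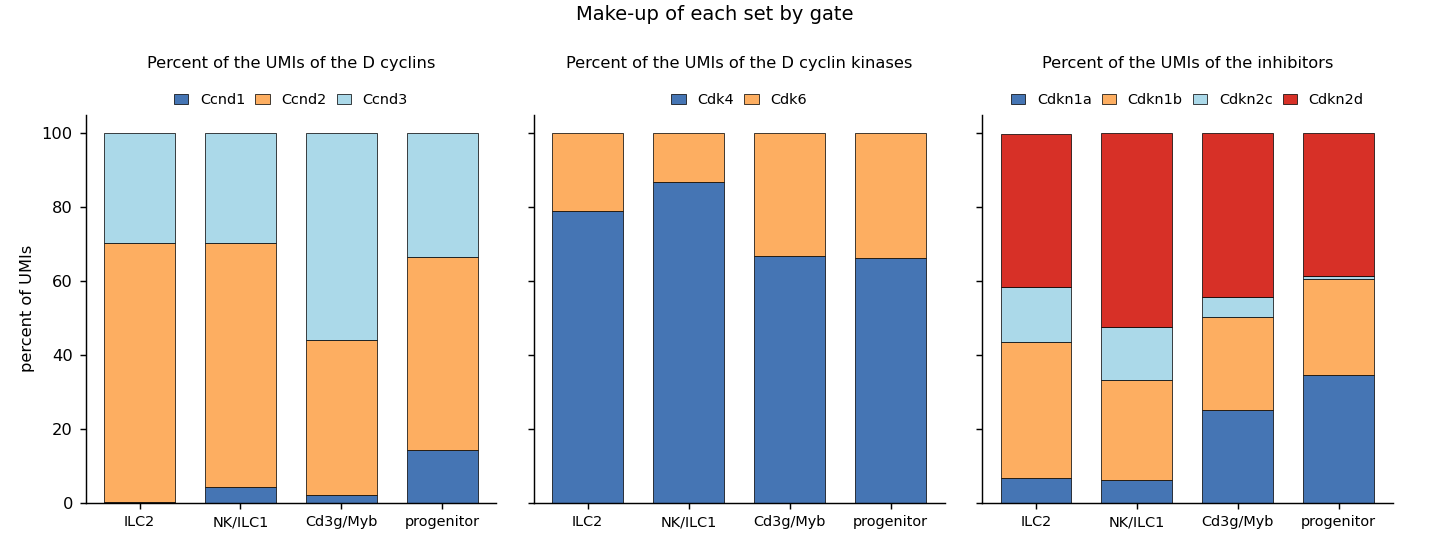
Percent of the summed UMIs taken by each gene (linear axis) for the D cyclins, the kinases and the inhibitors, in bars for the ILC2, NK/ILC1, Cd3g/Myb and progenitor gates with both suffixes pooled. Ccnd1 takes 14.3% of D cyclin UMIs in the progenitor gate and 0.184% in the ILC2 gate, and Cdkn1a takes 34.5% of inhibitor UMIs in the progenitor gate; Cdkn2a, with 6 UMIs, is not drawn.

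The kinase genes divided the innate gates from the other pair. Cdk4 was at 219 CPM in ILC2, 282 in NK/ILC1, 484 in Cd3g/Myb and 497 in progenitors. Cdk6 was at 58.2 CPM in ILC2, 42.8 in NK/ILC1, 241 in Cd3g/Myb and 255 in progenitors. Cdk6 was 4.37-fold lower in ILC2 and 5.95-fold lower in NK/ILC1 than in progenitors, and lower in both suffixes. Its ILC2 levels were 49.4 CPM in suffix 2 and 82.5 in suffix 1, and its NK/ILC1 levels 37.3 and 46.4 CPM, all below the progenitor levels of 258 CPM in suffix 2 and 248 in suffix 1. Cdk4 passed 2-fold below progenitors in ILC2 (log2 ratio -1.18, -1.24 to -1.13) and not in NK/ILC1 (-0.82, -0.87 to -0.77). Both depended on the suffix. In suffix 2 both gates passed, at 187 CPM in ILC2 and 167 in NK/ILC1, against 475 CPM in progenitors. In suffix 1 neither did, at 309 CPM in ILC2 and 356 in NK/ILC1, against 547 CPM in progenitors. The Cd3g/Myb gate differed from progenitors by -0.04 for Cdk4 and -0.08 for Cdk6 on the log2 scale. Cdk6 gave 21.0% of kinase UMIs in ILC2, 13.2% in NK/ILC1, 33.2% in Cd3g/Myb and 33.9% in progenitors.

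Myc and Mycn, whose products bind E-box letters, were also lower in the innate gates. Myc was at 24.2 CPM in ILC2, 21.5 in NK/ILC1, 54.1 in Cd3g/Myb and 83.6 in progenitors. Mycn was at 15.7 CPM in ILC2, 7.36 in NK/ILC1, 17.1 in Cd3g/Myb and 80.5 in progenitors. In the Cd3g/Myb gate Myc thus lay between its innate and progenitor levels, and Mycn near its ILC2 level. Whether either factor bears on Cdk4 or Cdk6 was not tested.

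In the NK/ILC1 gate Cdk4 differed between suffixes, at 167 CPM in suffix 2 and 356 in suffix 1 (log2 ratio -1.09). Most of this lay in the non-cycling barcodes, at 124 CPM in suffix 2 and 396 in suffix 1, where 34.8% of all genes passed 2-fold between suffixes. Without any barcode that held an epithelial UMI the log2 ratio was -0.97, just under 2-fold. Among the non-cycling suffix 1 barcodes of this gate, Cdk4 was at 525 CPM in those with 2 or more epithelial UMIs, 487 in those with 1 and 353 in those with none. Ccnd2 in the same barcodes was at 33.5, 48.7 and 239 CPM in that order, and Cdkn1b at 6.40, 6.33 and 19.9 CPM. The part of these barcodes in the suffix difference beyond that removal was not tested.

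Among the Cip/Kip inhibitors the 2 genes went opposite ways. Cdkn1b, encoding p27, was highest in ILC2, at 82.8 CPM, with 46.5 in NK/ILC1, 43.6 in Cd3g/Myb and 30.1 in progenitors. It passed 2-fold over progenitors in ILC2 (log2 ratio 1.46, 1.33 to 1.58), with 91.6 CPM in suffix 2 and 58.4 in suffix 1, against 31.8 and 26.4 CPM in progenitors. Cdkn1a, encoding the p53 target p21, was at 15.3 CPM in ILC2, 10.7 in NK/ILC1, 43.4 in Cd3g/Myb and 39.9 in progenitors. It was 2.60-fold lower in ILC2 and 3.72-fold lower in NK/ILC1 than in progenitors. Of 9 other p53 target genes measured in ILC2 over progenitors, 1 was past 2-fold higher (Zmat3, 6.53 against 0.961 CPM) and 0 lower. Their median log2 ratio was 0.40, against -0.11 for all genes, of which 13.5% were higher and 16.4% lower. In NK/ILC1 over progenitors 3 of 9 were higher and 0 lower (median 0.27 against -0.22), beside 11.6% and 18% of all genes.

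The INK4 genes were led by Cdkn2d, encoding p19, and differed most in Cdkn2c, encoding p18. Cdkn2d was at 93.3 CPM in ILC2, 90.0 in NK/ILC1, 77.0 in Cd3g/Myb and 44.6 in progenitors. It was just past 2-fold over progenitors in ILC2 (log2 ratio 1.06, 0.95 to 1.18) and NK/ILC1 (1.01, 0.90 to 1.12). Suffix 2 alone gave 102 CPM in ILC2 and 97.4 in NK/ILC1, against 42.4 CPM in progenitors, both past 2-fold. In suffix 1 neither was, at 70.2 CPM in ILC2 and 85.2 in NK/ILC1, against 49.6 CPM in progenitors. ILC2 and NK/ILC1 did not differ in it beyond counting error. Cdkn2c was at 33.7 CPM in ILC2, 24.7 in NK/ILC1, 9.28 in Cd3g/Myb and 1.10 in progenitors, where 31 UMIs were counted in all. Both innate gates were high in both suffixes, with 33.3 and 34.9 CPM in ILC2 and 28.1 and 22.5 CPM in NK/ILC1 for suffix 2 and suffix 1. Progenitors had 1.23 CPM in suffix 2 and 0.811 in suffix 1. Cdkn2c was 30.6-fold higher in ILC2 (log2 ratio 4.94, 4.41 to 5.51) and 22.4-fold higher in NK/ILC1 than in progenitors. The thinned share of barcodes with a Cdkn2c UMI was 13.5% in ILC2, 11.8% in NK/ILC1, 6.25% in Cd3g/Myb and 0.742% in progenitors, which gives the level of free RNA at most.

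Cdkn2a, which encodes both p16 and Arf, was close to absent from the counts. It had 5 UMIs in ILC2 (0.326 CPM) and 1 in NK/ILC1, and 0 in the Cd3g/Myb and progenitor gates. A count of 0 allows up to 0.328 CPM in the Cd3g/Myb gate and 0.107 CPM in the progenitor gate.

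Of the 9 members with enough UMIs, 7 passed 2-fold in ILC2 over progenitors, 3 higher (Cdkn1b, Cdkn2c and Cdkn2d) and 4 lower (Ccnd1, Cdk4, Cdk6 and Cdkn1a), where 29.9% of all genes did. In NK/ILC1 over progenitors 5 did, with Cdkn2c and Cdkn2d higher and Ccnd1, Cdk6 and Cdkn1a lower, where 29.6% of all genes did. Ccnd1 was lower there past 2-fold in suffix 1 (6.69 CPM, against 30.5 in progenitors) and not in suffix 2 (33.4 CPM, against 43.4). In Cd3g/Myb over progenitors 2 did, Cdkn2c higher and Ccnd1 lower, where 11.9% of all genes did. Suffixes changed these counts. In suffix 2, 7 members passed in ILC2 (30.6% of all genes), 7 in NK/ILC1 (32.8%), with Ccnd2, Cdkn1b and Cdk4 added and Ccnd1 lost, and 5 in Cd3g/Myb (14.4%), with Ccnd3, Cdkn1b and Cdkn2d added. In suffix 1, 5 passed in ILC2 (24.2%), without Cdk4 and Cdkn2d, 4 in NK/ILC1 (26.2%), without Cdkn2d, and 1 in Cd3g/Myb (6.99%), Ccnd1. Cdkn2c, with 12 UMIs in Cd3g/Myb and 7 in progenitors of suffix 1, was under the UMI minimum in that last comparison. In NK/ILC1 over ILC2, Ccnd1 alone passed 2-fold, higher, where 17.1% of all genes did. In ILC2 over progenitors and NK/ILC1 over ILC2, Ccnd1 (11 UMIs in ILC2) reached the UMI minimum through the gate where it was high. The median log2 ratio of the 9 members over progenitors was 0.33 in ILC2, 0.34 in NK/ILC1 and 0.12 in Cd3g/Myb, against -0.11, -0.22 and 0.01 for all genes. The summed kinases were at 278 CPM in ILC2, 324 in NK/ILC1, 725 in Cd3g/Myb and 752 in progenitors, and the summed INK4 genes at 127, 115, 86.3 and 45.7 CPM in the same order.

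**Figure D3:**
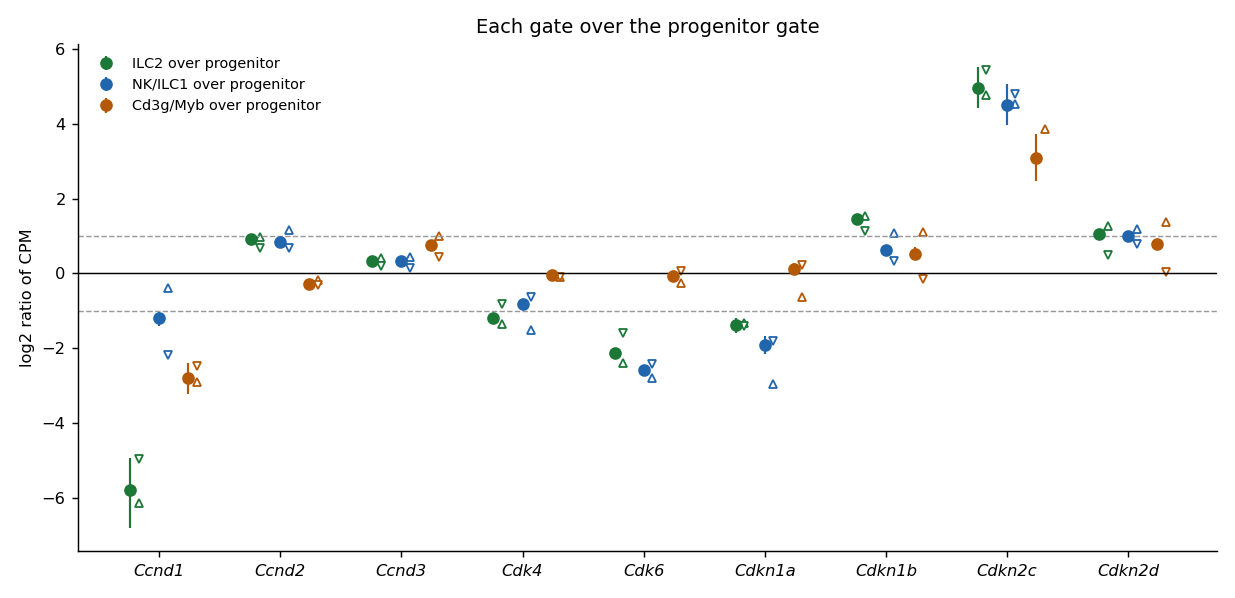
Log2 ratio of CPM in the ILC2, NK/ILC1 and Cd3g/Myb gates over the progenitor gate for 9 members, as filled circles with exact 95% counting intervals. Open triangles give the ratio within suffix 2 (pointing up) and suffix 1 (pointing down) where both groups had UMIs and at least 20 in all, and dashed lines mark 2-fold. Cdkn2c lies above 3 in all 3 gates, Cdk6 below -2 in the innate pair, and Ccnd1 at -5.78 in ILC2.

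The Cd3g/Myb ratios depended on which barcodes and which suffix were taken. Without barcodes that held a UMI of Sox13, Blk or Cd8b1, the log2 ratio over progenitors was 2.03 for Cdkn2c, -2.66 for Ccnd1, 0.56 for Ccnd3 and -0.11 for Cdkn1b, against 3.07, -2.80, 0.77 and 0.53 with them. Between suffixes of this gate, Cdkn2c was at 17.9 CPM in suffix 2 and 2.37 in suffix 1, Cdkn1b at 68.3 and 23.7, Cdkn2d at 109 and 51.1, and Cdkn1a at 22.8 and 59.9. All 4 passed 2-fold, where 9.52% of all genes did, and the gamma-delta list moved with them, at 183 CPM in suffix 2 and 30.4 in suffix 1. In suffix 1, Cdkn2c was seen in 12 barcodes at 1 UMI each, so it reached the UMI minimum through suffix 2, where it was high. The counts here and below keep it. Without the Sox13, Blk or Cd8b1 barcodes, Cdkn1b, Cdkn2d and Cdkn1a were within 2-fold between suffixes (log2 ratios 0.64, 0.48 and -0.80), and Cdkn2c had too few UMIs to count. Over all gates, 8 of 35 pairs of member and gate passed 2-fold between suffix 2 and suffix 1, where 10.6% of all such pairs did. The other 4 pairs were Ccnd1, Cdk4, Cdkn1a and Cdkn1b in the NK/ILC1 gate, where 16.6% of all genes passed, and 0 lay in the ILC2 or progenitor gates. Without NK/ILC1 barcodes that held any epithelial UMI, Cdk4 (-0.97) and Cdkn1b (0.83) were under 2-fold, while Ccnd1 (2.27) and Cdkn1a (-1.58) were past it.

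Division within a gate was the next comparison, and Cdkn2c was the only member past 2-fold with suffixes pooled. Smaller differences of other members are given further on. In ILC2 it was at 57.5 CPM in cycling barcodes (473 UMIs) and 6.20 CPM in non-cycling ones (44 UMIs). In NK/ILC1 it was at 42.4 CPM in cycling and 10.1 CPM in non-cycling barcodes. Within suffixes, cycling ILC2 barcodes had 64.6 CPM in suffix 2 and 45.1 in suffix 1, against 6.15 and 6.49 CPM in non-cycling ones. Cycling NK/ILC1 barcodes had 56.8 and 34.6 CPM, against 8.65 and 11.1 CPM in non-cycling ones. The inhibitor gene was thus 9.28-fold higher in cycling ILC2 barcodes (log2 ratio 3.21, 2.77 to 3.69) and 4.21-fold higher in cycling NK/ILC1 barcodes (2.08, 1.73 to 2.44). Without barcodes that held an epithelial UMI, the NK/ILC1 log2 ratio was 2.31 (1.91 to 2.73). At 1 thinned depth, 27.2% of cycling ILC2 barcodes had a Cdkn2c UMI, against 4.44% of non-cycling ones, and the NK/ILC1 shares were 21.0% and 6.19%.

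In the other gates Cdkn2c rested on few UMIs. Cycling Cd3g/Myb barcodes had 10.5 CPM from 80 UMIs, against 3.31 CPM from 5 UMIs in non-cycling ones. The direction held in suffix 2 alone, with 22.4 CPM in cycling barcodes (71 UMIs), against 2.20 CPM in non-cycling ones (2 UMIs). In suffix 1 it was opposite, with 2.01 CPM (9 UMIs), against 5.01 CPM (3 UMIs), too few to count. Its thinned share in that gate was 8.57% of cycling and 0 of 78 non-cycling barcodes. Cycling progenitors had 1.40 CPM from 29 UMIs, against 0.272 CPM from 2 UMIs in non-cycling ones. In both gates Cdkn2c reached the UMI minimum only through the cycling barcodes.

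No other member passed 2-fold with division in any gate once both suffixes were pooled. The 1 member past 2-fold, Cdkn2c, stands against 10.4% of all genes in ILC2, 9.4% in NK/ILC1, 13% in Cd3g/Myb and 5.78% in progenitors. The members' median log2 ratio was 0.30 in ILC2 (8 members), 0.02 in NK/ILC1, 0.12 in Cd3g/Myb and 0.04 in progenitors (9 members each), against 0.02, 0.10, -0.02 and 0.00 for all genes. Cdk6 in progenitors was at 255 CPM in cycling and 254 in non-cycling barcodes (log2 ratio 0.00, -0.07 to 0.08). Cdk4 was at 259 CPM in cycling and 174 in non-cycling ILC2 barcodes, a log2 ratio of 0.57 (0.47 to 0.67).

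Ccnd2 had the lowest cycling ratio, in the ILC2 gate. It was at 195 CPM in cycling and 365 CPM in non-cycling ILC2 barcodes (log2 ratio -0.91), and below its non-cycling level in both suffixes. In the Cd3g/Myb gate it was at 107 CPM in cycling and 177 CPM in non-cycling barcodes (log2 ratio -0.73), and without barcodes that held a UMI of Sox13, Blk or Cd8b1 the ratio was -0.06. The NK/ILC1 gate had opposite signs in its suffixes. Cycling barcodes of suffix 2 had 240 CPM, against 399 in non-cycling ones, and those of suffix 1 had 247 CPM, against 178 CPM. With every barcode that held an epithelial UMI removed, suffix 1 had 254 CPM in cycling and 239 CPM in non-cycling barcodes, a log2 ratio of 0.09 (-0.05 to 0.23).

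Cdkn2d was higher in cycling barcodes of the ILC2, NK/ILC1 and progenitor gates, below 2-fold with suffixes pooled. It was at 116 CPM in cycling and 67.5 in non-cycling ILC2 barcodes, and at 118 and 66.6 CPM in NK/ILC1. The Cd3g/Myb gate had 78.4 CPM in cycling and 69.6 CPM in non-cycling barcodes, within counting error (log2 ratio 0.17, -0.13 to 0.49), and the progenitor gate 47.8 and 35.6 CPM. In suffix 1 alone the ILC2 ratio passed 2-fold, at 84.5 CPM in cycling and 30.6 CPM in non-cycling barcodes, where 8.06% of all genes did. Cdkn1b was at 79.6 CPM in cycling and 86.4 CPM in non-cycling ILC2 barcodes. In NK/ILC1 it passed 2-fold in suffix 1 only, with 52.2 CPM in cycling and 15.6 in non-cycling barcodes, against 66.4 and 67.3 CPM in suffix 2, and 17.7% of all genes passed 2-fold in suffix 1. Without barcodes that held an epithelial UMI the suffix 1 values were 53.9 and 19.9 CPM, still past 2-fold.

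The simple split hid a bend that a finer one showed. Over bins of 0, 1 to 2, 3 to 9, 10 to 29, and 30 or more UMIs of Mki67 and Top2a, Cdkn2d in ILC2 was at 72.7, 57.4, 40.0, 96.6 and 165 CPM. In NK/ILC1 the same bins had 69.9, 62.4, 52.4, 138 and 165 CPM, and in Cd3g/Myb 99.4, 49.7, 38.7, 66.6 and 108 CPM. The lowest level thus lay in the 3 to 9 bin in these 3 gates, and in progenitors in the 1 to 2 bin, with 43.2, 29.2, 31.5, 45.4 and 61.5 CPM. Cdkn1b followed a like course in ILC2, with 95.3, 69.1, 64.5, 62.8 and 97.9 CPM. Cdkn2c had no such dip in ILC2, with 5.33, 7.91, 13.3, 49.9 and 83.9 CPM, and Ccnd2 there had 385, 325, 248, 189 and 172 CPM. Deeper barcodes hold more UMIs of any gene, and the median depth of these ILC2 bins ran from 10352 to 22502.5 UMIs, so the bins order depth as well as division.

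**Figure D4:**
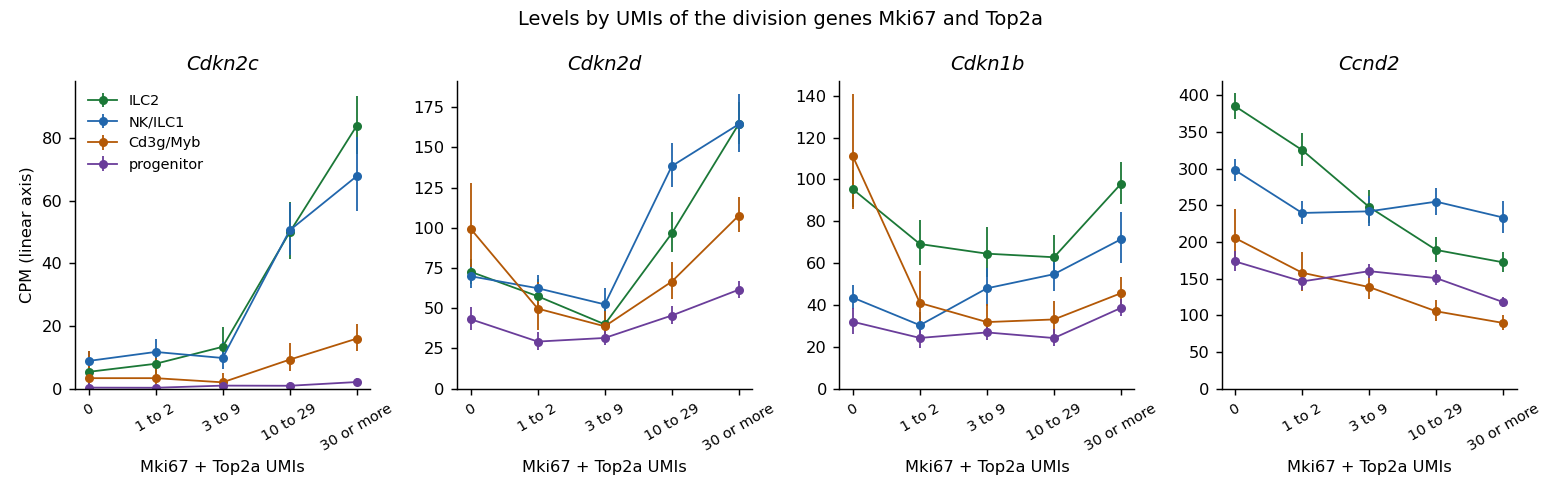
Level in CPM (linear axis) of Cdkn2c, Cdkn2d, Cdkn1b and Ccnd2 over 5 bins of Mki67 and Top2a UMIs, for the ILC2, NK/ILC1, Cd3g/Myb and progenitor gates with suffixes pooled and exact 95% counting intervals. Cdkn2c climbs to 83.9 CPM in ILC2, Cdkn2d dips before it climbs, and Ccnd2 in ILC2 declines to 172 CPM.

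Cycling barcodes were then parted by phase genes. M-richer barcodes held more UMIs of Ccnb1, Cdc20, Plk1, Cenpa, Cenpf and Aurka than of Mcm3, Mcm5, Mcm6, Pcna, Cdc6 and Ccne2, and S-richer barcodes fewer. ILC2 had 228 M-richer and 159 S-richer barcodes, NK/ILC1 241 and 183, Cd3g/Myb 91 and 119, and progenitors 226 and 290. Such a split is a range and not a phase call: 24 ILC2, 46 NK/ILC1, 13 Cd3g/Myb and 30 progenitor barcodes lay within 3 UMIs of the limit.

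Cdkn2c, Cdkn2d and Cdkn1b were higher in the M-richer barcodes of the innate gates, and Cdk4 and Cdkn1a were lower. Cdkn2d was at 157 CPM in M-richer and 53 in S-richer ILC2 barcodes, 161 and 62.1 in NK/ILC1, 99.7 and 58.7 in Cd3g/Myb, and 57.0 and 39.3 in progenitors. Its mean log2 ratio over the 4 gates was 1.06, and it was the 1 member past 2-fold on that mean, where 3.63% of all genes were. By gate, 3 members passed 2-fold in ILC2 (Cdkn2c, Cdkn2d and Cdkn1a), where 9.37% of all genes did. In NK/ILC1 Cdkn2d did (6.88% of all genes), in Cd3g/Myb Cdkn2c (5.3%) and in progenitors Ccnd1 (4.5%). Cdkn1b was at 93.7 CPM in M-richer and 58.3 in S-richer ILC2 barcodes, 71.8 and 38.9 in NK/ILC1, 47.8 and 30 in Cd3g/Myb, and 39.1 and 24.2 in progenitors. Its 4 log2 ratios ran from 0.67 to 0.89, so that this gene, flat between cycling and non-cycling ILC2 barcodes, differed within the cycling ones.

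Cdkn2c was at 80.6 CPM in M-richer and 22.4 in S-richer ILC2 barcodes, a log2 ratio of 1.85 (1.48 to 2.23). In NK/ILC1 it was at 52.1 and 29.7 CPM, with a ratio of 0.81 (0.45 to 1.18). Cdk4 was at 199 CPM in M-richer and 353 in S-richer ILC2 barcodes, and at 229 and 354 CPM in NK/ILC1, whereas progenitors had 493 and 518 CPM. Cdkn1a was at 10.3 CPM in M-richer and 27.1 in S-richer ILC2 barcodes, past 2-fold lower (log2 ratio -1.40, -1.93 to -0.89). In progenitors Ccnd1 was at 24.7 CPM in M-richer and 49.9 in S-richer barcodes, also past 2-fold lower (-1.02, -1.24 to -0.79). The median of the members' mean log2 ratios was -0.21, against 0.02 for all genes.

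Other genes of the RB-E2F pathway and its regulators, from a list of 30, were also set against division. The list holds further Cdk inhibitors, Myc and Mycn, so its counts are not a measure of genes after RB alone. In cycling over non-cycling ILC2 barcodes 10 of 29 measured were past 2-fold higher and 0 lower, with a median log2 ratio of 0.73 against 0.02 for all genes, of which 7.39% were higher and 3.01% lower. In NK/ILC1 14 of 29 were higher and 0 lower (median 0.84 against 0.10), where 5.82% of all genes were higher and 3.57% lower. In Cd3g/Myb 4 of 28 were higher and 2 lower (0.35 against -0.02), beside 5.79% and 7.19% of all genes. In progenitors 6 of 29 were higher and 0 lower (0.23 against 0.00), beside 4.04% and 1.74%. Ccna2, the S and G2 phase cyclin, was at 192 CPM in cycling and 9.02 in non-cycling ILC2 barcodes, and E2f8, a repressor E2F, at 34.5 and 1.55 CPM. Cks1b, a Cdk subunit, was at 478 CPM in cycling and 71.7 in non-cycling ILC2 barcodes. Ccne1, the cyclin that activates Cdk2 after the D cyclins, was at 43.7 and 9.02 CPM in the same barcodes. E2f2 was past 2-fold higher in the cycling barcodes of all 4 gates, and past 2-fold higher in ILC2, NK/ILC1 and Cd3g/Myb than in progenitors, at 19.3, 22.3 and 16.1 CPM against 3.35 CPM.

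Single genes of the list differed between gates. Rbl2, encoding p130, the RB relative of resting cells, was at 54.9 CPM in ILC2 and 35.8 in NK/ILC1, against 12.5 CPM in progenitors, past 2-fold in both. Rb1 was at 33.2 CPM in ILC2, against 7.79 in progenitors. Skp2, the ubiquitin ligase subunit that targets p27, was at 8.16 CPM in ILC2 and 8.44 in NK/ILC1, against 17.8 CPM in progenitors. Over the whole list, ILC2 over progenitors had 4 of 29 higher and 4 lower, where 13.5% of all genes were higher and 16.4% lower. NK/ILC1 had 3 higher and 7 lower, where 11.6% and 18% of all genes were, so the list as a whole lay near the background in both.

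FoxO target and quiescence genes, from a list of 10, were higher for the most part in ILC2 than in progenitors, with a smaller count in NK/ILC1. In ILC2 over progenitors 6 of 10 were past 2-fold higher and 3 lower, beside the 13.5% and 16.4% of all genes, with a median log2 ratio of 2.06 against -0.11 for all genes. NK/ILC1 over progenitors had 5 of 10 higher and 2 lower (median 0.83 against -0.22), beside 11.6% and 18% of all genes. Cd3g/Myb over progenitors had 1 higher and 0 lower of 10 (median 0.09 against 0.01), beside 5.16% and 6.74%. Klf2 and Btg1, given next, are among the 6 higher in ILC2, and no progenitor level is given here for the 3 lower there. Klf2, a quiescence factor, was at 439 CPM in ILC2 and 282 in NK/ILC1, against 65.5 CPM in progenitors. Btg1, an antiproliferative gene, was at 412 and 293 CPM in these gates, against 79.9 CPM in progenitors. Within ILC2, Btg1 was at 233 CPM in cycling and 620 CPM in non-cycling barcodes, past 2-fold lower, as was Pik3ip1, at 10.6 and 37.5 CPM. Cdkn1b, itself a FoxO target, was within 2-fold between cycling and non-cycling ILC2 barcodes. Whether FoxO factors bear on Btg1 or Cdkn1b here was not tested. By division, 0 of 9 in ILC2 were past 2-fold higher and 2 lower, and 1 and 1 of 10 in NK/ILC1. Cd3g/Myb had 0 higher and 4 lower of 9, and progenitors 0 and 1 of 10. Higher were 7.39%, 5.82%, 5.79% and 4.04% of all genes, and lower 3.01%, 3.57%, 7.19% and 1.74%, in that order. In suffix 1 alone, NK/ILC1 had 3 of 9 higher and 0 lower (13.1% and 4.59% of all genes). Progenitors of suffix 1 had the same counts (5.3% and 1.49%). Of the p53 targets, 4 of 9 were past 2-fold lower in cycling ILC2 barcodes, beside 3.01% of all genes, among them Bbc3, at 4.99 CPM in cycling and 18.6 CPM in non-cycling ones. The count was 3 lower of 7 in Cd3g/Myb (7.19% of all genes), 1 of 9 in progenitors (1.74%) and 0 of 9 in NK/ILC1 (3.57%), with 0 higher in these 4 gates when suffixes were pooled. Within ILC2, 2 of 8 were lower in suffix 2 (2.75% of all genes) and 3 of 8 in suffix 1 (2.1%). In suffix 1 alone 2 of 9 were higher in NK/ILC1 (13.1% of all genes) and 1 of 7 in progenitors (5.3%), with 1 lower in each.

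Levels of members were also compared over the 16 groups of gate, division and suffix, which share libraries and gates, as a description with no test. Ccnd2 ran against Cdk4 (Pearson r -0.91 of log2 CPM, 16 groups) and Cdk6 (-0.82). Cdk4 and Cdk6 had r 0.85, Cdk6 and Cdkn1a 0.86, and Cdkn2c and Cdkn2d 0.82. Of 5340 genes ranked for each member, the closest to Cdk4 were Trim28 (r 0.99) and Nt5dc2 (0.98), and those to Cdk6 were Cct2 (0.98) and Ankrd10 (0.98). Cdkn2c was closest to Pank2 (0.92) and Anapc11 (0.92), and Cdkn2d to Cdc25b (0.84) and Akt2 (0.82). The nearest to Cdkn1b were Rnf145 (0.97) and Usp25 (0.94), and to Cdkn1a Riox1 (0.95) and Prmt3 (0.94). Ccnd1 was nearest to Hspa1a (0.92) and Tsc22d1 (0.92), Ccnd2 to Laptm5 (0.94) and Myl12b (0.93), and Ccnd3 to Acaa2 (0.90) and Edem1 (0.89).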

How the data were processed

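The authors deposited raw UMI counts in 1 table that holds both libraries. The submitters' processing notes name Cell Ranger 3.0.2, STAR and the build GRCm38. How barcodes were called as cells is not given in the sources used here. No label links a column to 1 of the libraries, so suffixes were pooled and values within each suffix set beside the pooled ones. Some genes are not reported here.

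Filters of at least 500 genes and at most 10% mitochondrial UMIs took out 507 barcodes of suffix 2 and 35 of suffix 1. Doublets were called by Scrublet within each suffix (scanpy 1.11.5, Python 3.11.15): 93 in suffix 2 (2.76%) and 10 in suffix 1 (0.466%), a rate so low that the caller may not have worked there. Of the 5412 left, 322 with 2 or more UMIs of Krt8, Krt18 and Prss16 were removed. Before that removal, suffix 2 held 59222697 UMIs and suffix 1 held 39767463, with 713 to 113167 per barcode.

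The Cd3g/Myb gate took barcodes of no other gate, and 48 barcodes that passed several of the others were left out. UMIs were summed per group and divided by the group's total. Levels have exact Poisson intervals, ratios conditional exact intervals and shares Clopper-Pearson intervals, all at 95%. A count of 0 allows up to 3 counts. Thinning to the 10th percentile of depth, 6974 UMIs, left out shallower barcodes: 38 ILC2, 139 NK/ILC1, 21 Cd3g/Myb and 1 progenitor. For likeness, Pearson r was taken over log2(CPM + 5) for genes of at least 20 CPM on average. The functions were tested on simulated data. The named genes are the 10 members, list genes past 2-fold or among the 4 most abundant of their list, and the 2 genes most like each member with 200 or more UMIs. The members and lists were chosen with earlier results of these data known. The 3' ends of Ccnd1, Ccnd2, Ccnd3 and Cdk4 are overlapped by a gene on the opposite strand in GENCODE vM21, and the counting's use of strand was not stated in the labels. Alternatives varied gates, filters, scaling, weighting, depth and the cycling limit.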

Additional observations from a re-analysis of the deposited data

Results flagged for a closer look

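Cycling over non-cycling ratios went opposite ways in the 2 suffixes for 3 pairs of member and gate, and the difference was not tested in any of them. Ccnd2 in the NK/ILC1 gate had a log2 ratio of -0.73 in suffix 2 and 0.47 in suffix 1. Cdk4 in the same gate had 0.90 in suffix 2 and -0.34 in suffix 1. Without barcodes that held any epithelial UMI, the Ccnd2 ratios were -0.71 in suffix 2 and 0.09 in suffix 1, and the Cdk4 ratios 0.89 and -0.21. Cdkn1a in the Cd3g/Myb gate had 0.95 in suffix 2, on 81 cycling and 12 non-cycling UMIs, and -0.52 in suffix 1. In that gate the gamma-delta list summed to 183 CPM (suffix 2) against 30.4 CPM (suffix 1), whose part was not tested.

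Ccnd2 was at 318 CPM in the 48 barcodes that passed more than 1 of the ILC2, NK/ILC1 and progenitor gates, which no comparison used.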

How the results depend on the processing

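Of 1744 member values recomputed under the alternatives, 1450 kept their value within the counting interval, 294 moved and 0 changed sign where past 2-fold, though 76 of all values did. Among them 29 lost and 41 gained the 2-fold call. Of 151 counts of members past 2-fold, 129 stayed within 1.5 times. The exceptions follow, and the cause was not tested unless named. Cycling over non-cycling in the Cd3g/Myb gate gave 2 members with 1 UMI per gate gene, 0 with 3, 0 without Sox13, Blk or Cd8b1 barcodes, 3 with equal weight per barcode and 0 in suffix 1, against 1. In progenitors it gave 0 with barcodes of exactly 1 gate, 0 after thinning and 0 in suffix 1, against 1. In NK/ILC1 it gave 2 with cycling from 6 UMIs and 2 in suffix 1, and in ILC2 2 in suffix 1. M-richer over S-richer gave 2 with 1 UMI per gate gene, 2 with exactly 1 gate, 2 with no filters, 2 after thinning and 2 in suffix 2, but 0 with cycling from 6 UMIs and 0 at 2 UMIs per 10000. Cd3g/Myb over progenitors gave 5 with equal weight, 5 in suffix 2 and 1 in suffix 1, against 2. The suffix pairs fell to 4 without Sox13, Blk or Cd8b1 barcodes, against 8.

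Leaving out shared barcode sequences, barcodes with any epithelial UMI, or progenitors that also pass Cd3g and Myb was chosen after seeing the data. Depth limits Cdkn2a, Ccnd1 in ILC2 and Cdkn2c in progenitors, which rest on 6, 11 and 31 UMIs. No paired analysis was possible because each stage has 1 library and no barcode is tied to it.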
